A study of Mus musculus with 4 samples.

Results

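The genes described here encode the Lin7 scaffolds, catenins and partner proteins of cell junctions: Lin7a, Lin7b, Lin7c, Cask, Dlg1, Ctnna1, Ctnna2, Ctnnb1, Ctnnd1 and Cdh2. They were measured in the cytoplasm of Neuro2A cells, a mouse neuroblastoma line, with and without knockdown of 4.5SH, a short rodent RNA that codes for no protein and resembles B1 repeats. Members were taken as the probe sets, groups of short oligonucleotide probes that report 1 transcript, whose array annotation gave a single symbol from these 10 genes. This yielded 31 of the 34945 probe sets with a single symbol, and 10 of the 18193 genes these name. The set was selected on the same knockdown and control signals that are given below, in particular on the low signals of Lin7b and Ctnna2 in the knockdown. The values of the 10 genes are therefore a description, with no test of a member.

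The study hybridised 4 Affymetrix arrays, 2 of cells depleted of endogenous 4.5SH and 2 of control cells, and its stated aim was to find target genes that carry an antisense B1 element. Antisense oligonucleotides were used at 30 nM, and the sources used here do not name the one that control cells received. Effects of 4.5SH loss and of the transfected oligonucleotide cannot be told apart. The labels call the replicates biological without naming separate transfections, so errors and p-values measure the spread between these arrays, which may be technical. Only cytoplasmic RNA of 1 cell line was profiled. Less of an RNA in each cell, fewer cells with it and less of it in the cytoplasm cannot be told apart, and the level of 4.5SH itself was not analysed here.

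Lin7 proteins are small scaffolds with an L27 domain, which pairs with the L27 domains of Cask and related membrane-associated guanylate kinases, and a PDZ domain, which holds the tails of receptors and channels. Cadherins join neighbouring cells. Beta-catenin (Ctnnb1) and p120-catenin (Ctnnd1) bind the cadherin tail, and alpha-catenins (Ctnna1 and, in neurons, Ctnna2) link beta-catenin to actin. Lin7 also binds beta-catenin, which places the scaffolds at cadherin junctions and at synapses.

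The start regions of Lin7b and Ctnna2, which had the largest differences among the members, are shown beside that of Lin7c, a paralogue of Lin7b with signals in the other direction. RefSeq start regions on GRCm38.p6 were at hand for 7 of the 10 genes, and not for Cask, Ctnna1 and Cdh2. Each spans 250 bases before to 50 after the annotated start, written 5′ to 3′ on the gene's strand. Capitals mark the GC box letters GGGCGG on either strand, overlapping copies included. The Lin7b region is chr7:45370515-45370814 on the minus strand, that of Lin7c chr2:109890628-109890927 on the plus strand and that of Ctnna2 chr6:77979618-77979917 on the minus strand.
Lin7b: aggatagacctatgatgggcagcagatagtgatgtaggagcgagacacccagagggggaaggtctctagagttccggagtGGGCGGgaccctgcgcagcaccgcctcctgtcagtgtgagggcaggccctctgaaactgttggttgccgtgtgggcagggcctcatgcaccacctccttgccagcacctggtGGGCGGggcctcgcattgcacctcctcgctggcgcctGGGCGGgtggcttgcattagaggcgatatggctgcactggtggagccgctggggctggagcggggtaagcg
Lin7c: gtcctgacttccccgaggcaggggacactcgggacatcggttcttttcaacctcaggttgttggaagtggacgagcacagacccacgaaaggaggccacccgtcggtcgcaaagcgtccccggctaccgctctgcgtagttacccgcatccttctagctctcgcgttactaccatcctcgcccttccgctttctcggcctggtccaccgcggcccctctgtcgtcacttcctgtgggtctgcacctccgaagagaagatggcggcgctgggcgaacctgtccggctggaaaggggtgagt
Ctnna2: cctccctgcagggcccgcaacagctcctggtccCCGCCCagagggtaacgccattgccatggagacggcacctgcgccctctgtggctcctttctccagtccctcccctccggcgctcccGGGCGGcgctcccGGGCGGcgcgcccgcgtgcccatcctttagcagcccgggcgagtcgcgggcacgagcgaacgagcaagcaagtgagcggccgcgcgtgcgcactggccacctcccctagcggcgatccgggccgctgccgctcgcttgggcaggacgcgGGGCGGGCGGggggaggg

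The letters GGGCGG occurred 3 times in the region of Lin7b, 5 times in that of Ctnna2, where a pair of copies overlap, and not in that of Lin7c. Among the other members' regions both of Ctnnb1, whose differences were near 0, held 3 copies, and both of Ctnnd1, which had a lower probe set, held 0. The Ctnnb1 regions overlap each other and share some of these copies. The regions of Dlg1 held 2, 1, 0 and 0 copies, and both of Lin7a held 1. Any link between the copies and the differences was not tested. The letters occur in 35.7% of all 32851 start regions of this length. The letters CCAAT, found in 37.4% of all regions, and TATAAA, found in 13.6%, were in none of these 3. The region of Lin7b held 15 CpG dinucleotides, that of Lin7c 26 and that of Ctnna2 38, against a median of 7 over all regions. These counts describe the sequences alone, since the arrays measured no binding.

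Values are MAS5 signals, the linear summary of a probe set's brightness, and differences are knockdown minus control of log2(signal + 16) with standard errors from limma on 2 against 2 arrays. Median signals of the 4 arrays lay between 17.1 and 18.3. Probe sets at or above the median of the mean log2 value, a signal of about 16.4, were tested. The median difference of the 22519 tested probe sets was -0.11, and it was 0.00 with quantile scaling and -0.25 with spike-in scaling, so a member's difference is read against this shift. Among 18 neuroblastoma markers 16 were measured and 12 stood above the filter, with summed signals of 12100 and 12300 in the knockdown against 13300 and 13200. Of the 12, Phox2a (-0.23), Gata2 (-0.45), Stmn2 (-0.17) and Uchl1 (-0.14) fell, Chgb rose (0.33) and the rest did not pass. Gata3, Th, Nefl and Nefm lay below the filter. The 6 endothelial markers summed to 163 and 171 in the knockdown against 309 and 290, where Pecam1 (-0.88) and Vwf (-1.29) fell, Tek did not pass (24.2 and 32.4 against 32.6 and 20.3, a difference of 0.07), and Cdh5, Kdr and Tie1 lay below the filter. The 5 measured immune markers summed to 420 and 424 against 735 and 818. Of the 2 above the filter Cd68 fell (-0.94) and Csf1r did not pass (-0.17), and Ptprc lay between 0.3 and 8.1. The sums of 8 epithelial markers (114 and 126 against 131 and 87.1), of 7 glial markers (103 and 128 against 107 and 135) and of 7 fibroblast markers (249 and 278 against 261 and 281) overlapped between the groups. Among the glial markers Sox10 rose by 0.76, at 28.8 and 25.4 against 9.7 and 9.2. The part of such markers in the differences below was not tested. The 3′ over 5′ signal ratio of the Actb control probe sets was 2.47 and 2.49 in the knockdown against 2.60 and 2.78, and for Gapdh it was 0.833 and 0.787 against 0.884 and 0.861. At its brightest probe set with a single symbol Actb differed by 0.07 ± 0.05 (adjusted p = 0.248, limma), and Gapdh was read at control probe sets alone.

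Of the 31 member probe sets 24, from 9 genes, passed the filter, and the other 7 included all 3 of Lin7a. The faintest tested one had a mean signal of 22.9 and the brightest untested one 7.23. Among the 24, 9 passed a limma adjusted p threshold of 0.05 with a lower value in the knockdown, where 25.8% of all tested probe sets did, and 3 passed with a higher value, where 9.73% did. Both knockdown arrays lay below both control arrays at 11 of the 24, against 44.3% of all tested probe sets, and above them at 4, against 22.6%. The median difference of the 24 was -0.14. Nothing is read from these counts, because this contrast chose the genes.

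**Figure D1:**
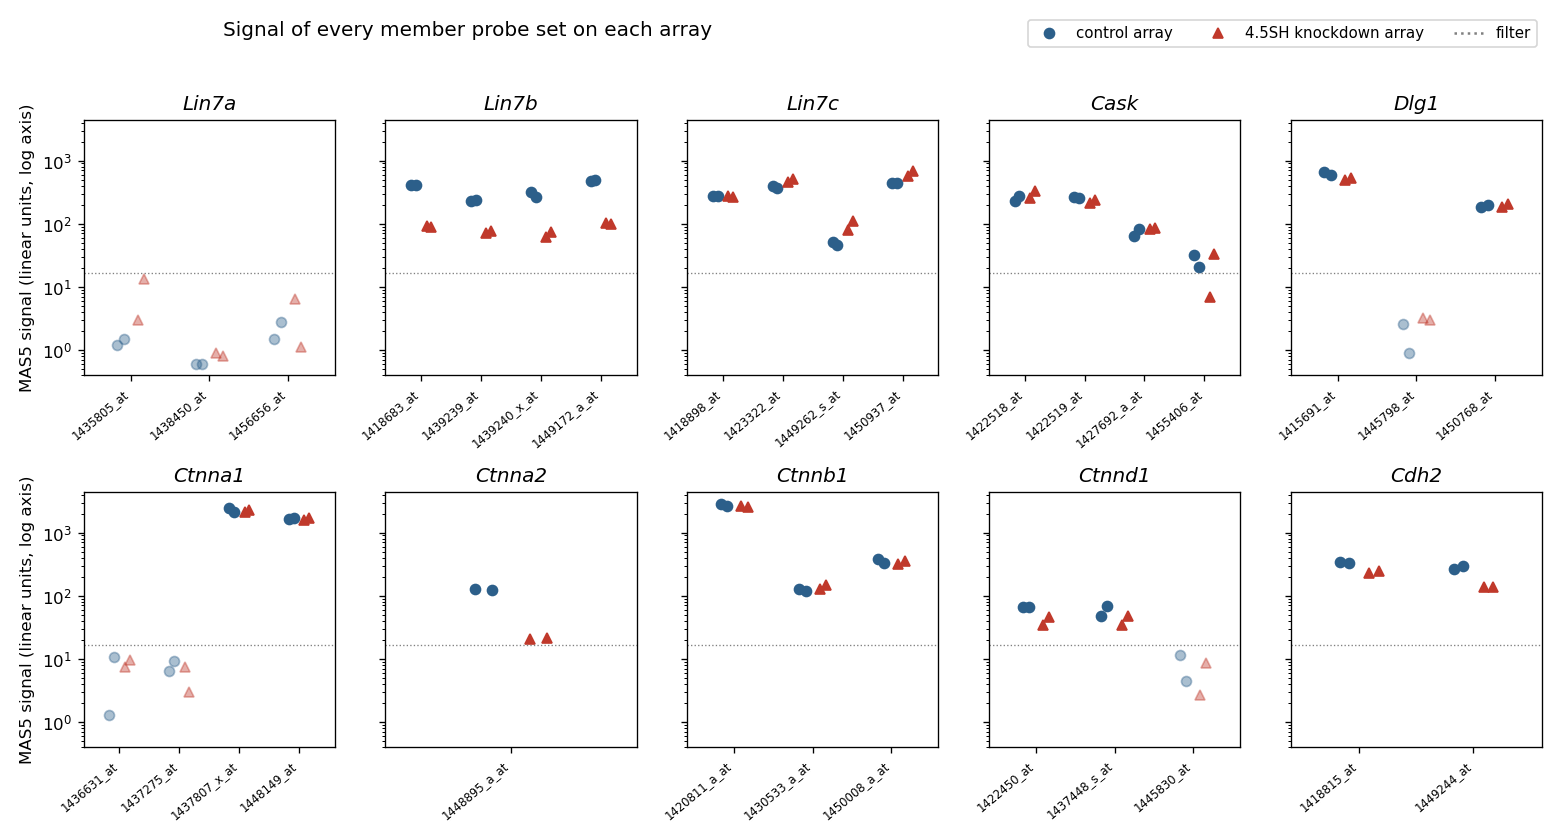
MAS5 signal on a log axis for each of the 31 probe sets of the 10 genes, with blue circles for the 2 control arrays, red triangles for the 2 knockdown arrays, faded symbols for the 7 probe sets below the filter and a dotted line at the filter's signal of about 16.4. All 4 Lin7b probe sets and the Ctnna2 probe set show the knockdown arrays well below the control arrays, whereas 3 of 4 Lin7c probe sets show them above.

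Lin7b, the Lin7 paralogue with the largest difference, was lower in both knockdown arrays at each of its 4 probe sets. At 1449172_a_at the signal was 102.8 and 99.2 in the knockdown against 468.2 and 497.9 in the control. Probe set 1418683_at read 92.3 and 88.9 against 417.2 and 409.6. The mean control signal was thus 4.78 and 4.56 times the mean knockdown signal at these probe sets, with differences of -2.09 ± 0.11 and -2.01 ± 0.11.

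At 1439240_x_at Lin7b read 61.1 and 73.4 in the knockdown against 321.1 and 269.3 in the control. At 1439239_at it read 70.5 and 76.1 against 225.6 and 239.6. These differences were -1.90 ± 0.14 and -1.48 ± 0.13. The lowest control signal of each Lin7b probe set was well above its highest knockdown signal. The suffix _x_at marks a probe set with probes that can also match other sequences, and this one differed about as much as the others.

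Of the 773 genes with 4 or more tested probe sets, 32 passed with a lower value at every one of them, and Lin7b alone was lower by more than 1 on the log2 scale at every one. Lin7b was chosen for its low knockdown signals, so this is a description of its size. Among all tested probe sets 11 had a lower difference than Lin7b at 1449172_a_at and 17 a lower one than Ctnna2. Over 16 alternatives in processing the difference at 1449172_a_at ranged from -2.25 to -1.73, and at 1439239_at from -1.65 to -1.11.

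Lin7c, its paralogue, differed in the other direction at 3 of 4 probe sets. Of the 773 genes with 4 or more tested probe sets, 234 likewise had some that passed higher and none that passed lower. The signal at 1450937_at was 573.8 and 684.1 in the knockdown against 439.1 and 445.2 in the control, a difference of 0.49 ± 0.09. At 1423322_at it was 462.6 and 517.8 against 402.1 and 372.8, a difference of 0.33 ± 0.09. The groups did not overlap at either.

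The dimmer Lin7c probe set 1449262_s_at read 80.7 and 109.4 in the knockdown against 51.3 and 45.5 in the control, a difference of 0.78 ± 0.17. Its suffix _s_at marks probes shared between several transcripts. The remaining Lin7c probe set, 1418898_at, read 271.5 and 266.9 against 269.9 and 271.2, with overlapping groups and a difference of -0.01 ± 0.10. The probe sets of Lin7c thus disagree: those at 0.33 to 0.78 stand beside one at the level of the control, which is 0.18 with quantile scaling and -0.15 with spike-in scaling.

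The higher values of Lin7c were less firm than the lower ones of Lin7b. Without knockdown replicate 2 only 1 of the 3 still passed, at 1450937_at, while 1423322_at was at 0.25 and 1449262_s_at at 0.59. With spike-in scaling 1423322_at was at 0.18 and no longer passed. The difference at 1450937_at ranged from 0.35 to 0.67 over 16 alternatives and passed in each.

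Lin7a, the third paralogue, had no probe set above the filter. Its signals were 3.0 and 13.4 in the knockdown against 1.2 and 1.5 in the control at 1435805_at, 0.9 and 0.8 against 0.6 and 0.6 at 1438450_at, and 6.5 and 1.1 against 1.5 and 2.8 at 1456656_at. At such levels the arrays give no usable difference, so a change in Lin7a was not detectable here.

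Cask, the guanylate kinase scaffold that binds Lin7 through their L27 domains, showed no common direction. Its signal at 1422518_at was 256.9 and 332.6 in the knockdown against 225.1 and 277.7 in the control (0.21 ± 0.13). At 1422519_at it was 214.2 and 235.7 against 261.9 and 253.2 (-0.18 ± 0.11), the only Cask probe set whose groups did not overlap. Probe set 1427692_a_at read 81.1 and 85.5 against 64.4 and 82.9 (0.15 ± 0.16).

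The faintest Cask probe set, 1455406_at, read 7.0 and 32.6 against 31.6 and 20.4 (-0.32 ± 0.31), and without knockdown replicate 1 its sign turned to 0.22. None of the 4 Cask probe sets passed the threshold. With quantile scaling 1422518_at passed at 0.39.

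Dlg1, a scaffold of the same guanylate kinase family found at junctions and synapses, gave 2 tested probe sets. At 1415691_at it read 492.2 and 526.9 in the knockdown against 667.6 and 599.8 in the control, a difference of -0.30 ± 0.09. At 1450768_at it read 183.6 and 202.8 against 185.0 and 195.5, a difference of 0.02 ± 0.11 that turned to -0.12 with spike-in scaling. The groups were apart at the first and overlapped at the second.

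The lower value at 1415691_at passed the threshold on the deposited scale but not with quantile scaling, where it was -0.11, nor without knockdown replicate 1 (-0.26) or without control replicate 1 (-0.23). The third Dlg1 probe set, 1445798_at, lay below the filter at 3.2 and 3.0 against 2.6 and 0.9.

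**Figure D2:**
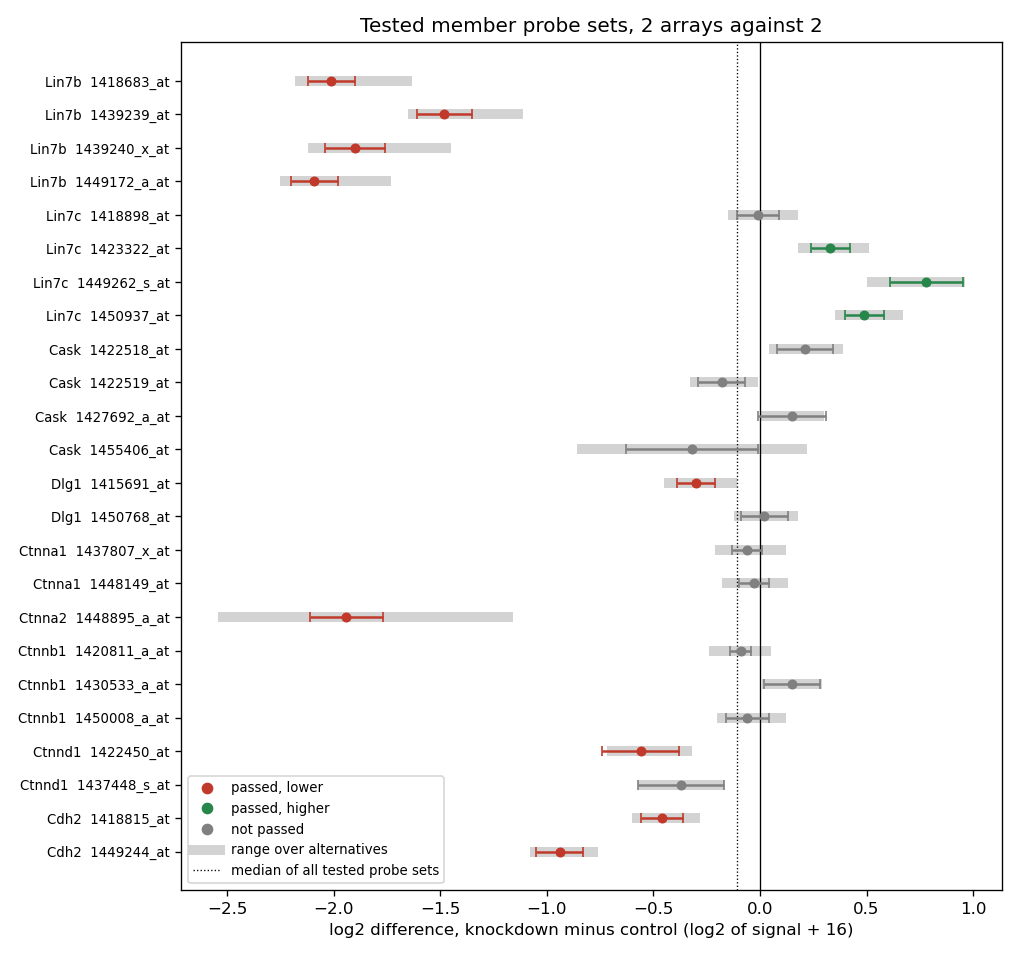
Log2 difference, knockdown minus control, with its standard error for the 24 tested probe sets on 2 against 2 arrays, coloured by whether the probe set passed the threshold, over a grey bar for the range across alternatives in processing. The 4 Lin7b points and Ctnna2 lie between -2.09 and -1.48 and the Lin7c points between -0.01 and 0.78. Those of Cask lie between -0.32 and 0.21, those of Ctnna1 at -0.06 and -0.03, and those of Ctnnb1 between -0.09 and 0.15. The dotted line marks the median of all tested probe sets, -0.11.

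Ctnna2, the neuronal alpha-catenin, was measured by 1 probe set with a single symbol, 1448895_a_at. Its signal was 20.3 and 21.3 in the knockdown against 127.7 and 123.4 in the control, so that the mean control signal was 6.04 times that of the knockdown. The difference was -1.94 ± 0.17. Both knockdown signals lay close to the filter, where the pseudocount weighs on the size: the difference was -2.54 with a pseudocount of 1 and -1.16 with 64. No other probe set was there to compare.

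Ctnna1, the broadly expressed alpha-catenin, kept nearly equal signals. It read 2104.1 and 2277.5 in the knockdown against 2437.2 and 2149.7 in the control at 1437807_x_at, and 1560.4 and 1728.9 against 1661.5 and 1700.3 at 1448149_at. The differences of -0.06 ± 0.07 and -0.03 ± 0.07 had overlapping groups and turned to values above 0 with quantile scaling. The 2 further Ctnna1 probe sets lay below the filter, with signals between 1.3 and 10.8. The alpha-catenin paralogues thus showed, side by side, differences of -1.94 and of -0.06 to -0.03.

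Ctnnb1, beta-catenin, which both joins alpha-catenin to cadherins and carries Wnt signals to the nucleus, was near 0 at its 3 probe sets. At 1420811_a_at it read 2594.2 and 2566.8 in the knockdown against 2840.8 and 2673.3 in the control (-0.09 ± 0.05). At 1450008_a_at it read 323.5 and 357.8 against 380.0 and 333.7 (-0.06 ± 0.10), and at 1430533_a_at 128.1 and 149.4 against 127.7 and 118.4 (0.15 ± 0.13). The first had lower and the last had higher signals in both knockdown arrays, and none passed the threshold. With spike-in scaling 1420811_a_at passed at -0.24, and with quantile scaling it was above 0.

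Ctnnd1, p120-catenin, which binds the cadherin tail near the membrane and steadies it there, was dim. At 1422450_at it read 34.0 and 45.9 in the knockdown against 65.4 and 66.3 in the control, a difference of -0.56 ± 0.18 that passed the threshold. At 1437448_s_at it read 33.7 and 47.7 against 47.5 and 67.5, a difference of -0.37 ± 0.20 with overlap at the margin. The call at 1422450_at was lost when knockdown replicate 1 (-0.40), control replicate 1 (-0.56) or control replicate 2 (-0.55) was left out. The third probe set, 1445830_at, lay below the filter, with signals between 2.7 and 11.3.

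Cdh2, N-cadherin, the cadherin of neural cells, was lower at both of its probe sets. At 1449244_at its signal was 136.1 and 139.0 in the knockdown against 266.2 and 291.3 in the control, a difference of -0.94 ± 0.11. At 1418815_at it was 233.1 and 248.7 against 342.7 and 333.0, a difference of -0.46 ± 0.10. The groups did not overlap at either probe set. With quantile scaling the differences were -0.78 and -0.28, and both passed under every alternative run.

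Of the paralogues outside the 10 genes, Dlg4 and Ctnnal1 are named as among the largest falls of the gene lists below. The others were chosen after their values were seen and are given whatever their direction. Dlg4, which encodes the postsynaptic scaffold PSD-95, read 127.4 and 133.0 in the knockdown against 297.3 and 250.6 in the control at 1419580_at. It fell by 0.98 ± 0.12 there (adjusted p = 2.93e-05, limma) and by 0.61 ± 0.14 at 1419581_at, while 1460261_at did not pass at -0.35. Dlg3 (-0.35 ± 0.25) and Dlg5 (-0.36 ± 0.14) did not pass at probe set level, and the 3 probe sets of Dlg2 lay below the filter. At gene level Dlg5 passed lower (adjusted p = 0.0317, limma) and is counted so in the lists below. In the catenin families Ctnnal1, an alpha-catenin-like protein, fell at both of its probe sets, by 0.89 ± 0.14 (adjusted p = 0.000241, limma) and by 0.57 ± 0.18. Those of Ctnna3 and Ctnnd2 were below the filter. Plakoglobin, Jup, the closest relative of beta-catenin, was at -0.10 ± 0.13 and did not pass. Of the p120 relatives Arvcf fell at 1 of 3 probe sets (-0.42 ± 0.14) and Pkp4 at 1 of 2 (-0.37 ± 0.08). E-cadherin, Cdh1, and R-cadherin, Cdh4, lay below the filter.

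In the RefSeq gene table Lin7b lies between Ppfia3 and Snrnp70, and its span overlaps that of Mtag2. The single Mtag2 probe set lay below the filter, at 2.4 and 5.9 in the knockdown against 10.7 and 2.4 in the control. Ppfia3, which encodes a liprin scaffold of the presynapse, did not pass (-0.39 ± 0.24). Snrnp70, which encodes a protein of the U1 spliceosomal particle, read 238.9 and 324.7 against 610.0 and 478.1 at its tested probe set and fell by 0.92 ± 0.14 (adjusted p = 0.000147, limma). Lrrtm1, a synaptic adhesion gene inside the span of Ctnna2, had signals between 0.3 and 7.7 at 3 probe sets, all below the filter. 6330415B21Rik, also inside Ctnna2, Lrrtm2, inside Ctnna1, and Gpr34, inside Cask, lay below it too. No probe set with a single symbol measured the genes next to Ctnna2.

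The brightest Lin7b probe set was compared with those of all other tested genes by the Euclidean distance between their 4 log2 values, each centred on its own mean. The nearest were 5530601H04Rik (distance 0.17), Ctnna2 (0.184) and the muscle gene Mybpc2 (0.197). 5530601H04Rik read 97.9 and 95.8 in the knockdown against 409.8 and 417.0 in the control, and Mybpc2 51.7 and 47.6 against 243.0 and 228.4. With 4 arrays in 2 groups this likeness says little more than that the differences were of similar size (-1.93 and -1.94).

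The wider setting was described by 5 lists without the 10 members, called junction lists here, each gene taken at its brightest tested probe set. They include Wnt pathway genes and partners of Lin7 and Cask, so not all of their genes encode junction proteins. Of 184 genes named 174 had a probe set with a single symbol and 117 were tested: 41 fell, 6 rose and 70 did not pass. Over all 11804 tested genes 35.2% fell and 9.79% rose, so the share that fell was near the background and the share that rose was below it. Some of the genes counted as lower passed only at gene level, with no probe set that passed when adjusted over all probe sets. The lists were not tested as sets. The median difference was -0.12 in the lists and -0.16 over all genes. The split moved with scaling, to 27 lower and 15 higher with quantile scaling and to 48 lower and 2 higher with spike-in scaling. All 11804 tested genes moved the same way, from 4155 lower and 1156 higher to 2666 and 2089 with quantile scaling and to 5436 and 524 with spike-in scaling. Leaving out any of the arrays lowered the number of lower genes in the lists, and leaving out knockdown replicate 2 also that of higher ones. Over all 11804 tested genes the number of lower genes likewise fell whichever array was left out. That of higher genes fell there too without knockdown replicate 2.

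Partners of Lin7 and Cask and other guanylate kinase scaffolds were lower at 13 of 31 tested genes and higher at 2, with 16 not passed and a median of -0.30. Besides Dlg4, the presynaptic adaptor Apba1 (Mint1), which joins Lin7 and Cask in 1 complex, read 20.7 and 22.8 in the knockdown against 53.1 and 55.6 in the control. It fell by 0.90 ± 0.20 (adjusted p = 0.00134, limma), but the mean of its probe sets was at -0.48 and did not pass. Its knockdown signals lay close to the filter, and the difference was -1.28 with a pseudocount of 1 and -0.465 with 64. The scaffold Mpp4 read 93.3 and 106.2 against 197.0 and 174.2 and fell by 0.80 ± 0.13 (adjusted p = 7.56e-05, limma). Magi3, a junction scaffold with several PDZ domains, rose by 0.48 ± 0.10 (adjusted p = 0.000778, limma) at 389.7 and 400.8 against 301.6 and 256.4. It passed higher at 1 of its 3 tested probe sets. Mpp6, a further Lin7-binding scaffold also called Pals2, rose by 0.28 ± 0.08 (adjusted p = 0.00915, limma) at 702.7 and 789.5 against 611.3 and 613.0. With spike-in scaling it was at 0.13, and without knockdown replicate 2 at 0.19, and passed in neither. Without knockdown replicate 1 fewer genes passed lower, both in this list and over all tested genes.

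Among cadherins, catenins, nectins and other adherens junction proteins 9 of 22 tested genes fell, 1 rose and 12 did not pass, with a median of -0.16. The largest fall among them was that of Ctnnal1, given above. Vinculin, Vcl, which anchors alpha-catenin to actin, read 221.7 and 233.6 in the knockdown against 385.5 and 349.5 in the control and fell by 0.65 ± 0.10 (adjusted p = 4.47e-05, limma). Vcl and Plekha7, a p120-catenin partner, each passed lower at 1 of 2 tested probe sets. Plekha7 fell by 0.59 ± 0.16 (adjusted p = 0.00711, limma), a call lost without knockdown replicate 1 (-0.54). The exception was the small GTPase Cdc42, at 3183.9 and 2902.7 against 2414.9 and 2232.0. It rose by 0.39 ± 0.06 (adjusted p = 4.82e-05, limma), with 3 of 4 probe sets higher, and by 0.24 with spike-in scaling. Fewer genes of this list, and of all tested genes, passed lower without knockdown replicate 1. With quantile scaling the list had 4 lower and 3 higher genes.

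In the list of the beta-catenin destruction complex and the Wnt pathway 11 of 36 tested genes fell, 2 rose and 23 did not pass, with a median of -0.08. Axin1, the scaffold of the destruction complex, read 330.7 and 334.1 in the knockdown against 634.1 and 705.1 in the control and fell by 0.97 ± 0.09 (adjusted p = 1.59e-07, limma) with both probe sets lower. Lef1, a transcription factor that beta-catenin binds, read 44.8 and 43.0 against 67.8 and 123.2 and fell by 0.85 ± 0.20 (adjusted p = 0.0025, limma). Without control replicate 2 it was at -0.49 and did not pass. Porcn, which adds lipid to Wnt proteins, read 10.2 and 28.4 in the knockdown against 41.2 and 35.9 in the control. The first of these lies below the filter's signal. Porcn fell by 0.68 ± 0.25 (adjusted p = 0.0384, limma), but did not pass with quantile scaling (-0.635). Its difference was -1.12 with a pseudocount of 1 and -0.31 with 64. Without knockdown replicate 1 it was at -0.30 and did not pass. Csnk1a1, the kinase that primes beta-catenin for destruction, rose by 0.24 ± 0.05 (adjusted p = 0.0012, limma), but was at 0.09 and did not pass with spike-in scaling. Of its 3 tested probe sets 1 passed higher. The Wnt co-receptor Lrp6 rose by 0.37 ± 0.14 (adjusted p = 0.0422, limma), a call lost without control replicate 2 (0.15), without knockdown replicate 1 (0.32) or without knockdown replicate 2 (0.42). It did not pass with spike-in scaling (0.23) or as the mean of its probe sets (0.17) either. Adjusted over all probe sets rather than genes, neither Porcn nor Lrp6 passed. With quantile scaling this list had 6 lower and 5 higher genes. Leaving out control replicate 1 reduced its lower genes, and leaving out either knockdown array its higher ones. The numbers over all tested genes fell likewise.

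Tight junction and polarity genes fell at 6 of 24 tested, rose at 1 and did not pass at 17, with a median of -0.08. The polarity scaffold Scrib read 517.4 and 523.6 in the knockdown against 873.1 and 863.9 in the control and fell by 0.72 ± 0.07 (adjusted p = 8.16e-07, limma). Marveld2 (tricellulin), a protein of tricellular tight junctions, fell by 0.81 ± 0.10 (adjusted p = 5.1e-06, limma) and Mpdz, a scaffold with many PDZ domains, by 0.69 ± 0.12 (adjusted p = 0.000144, limma). The mean of the Mpdz probe sets was -0.33. Ybx3, a nucleic acid-binding protein found at tight junctions, rose by 0.25 ± 0.06 (adjusted p = 0.00152, limma), but was at 0.11 with spike-in scaling and at 0.17 without knockdown replicate 2, and passed in neither. Of its 2 tested probe sets 1 passed higher. With quantile scaling the list had 5 lower and 4 higher genes. Leaving out knockdown replicate 1 reduced the lower genes of this list and those over all tested genes.

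Of 17 measured desmosome and gap junction genes only 4 were tested, of which 2 fell and 2 did not pass. The epithelial plaque protein envoplakin, Evpl, read 89.8 and 98.8 in the knockdown against 162.6 and 163.6 in the control and fell by 0.70 ± 0.13 (adjusted p = 0.000261, limma). The connexin Gjc1 read 138.6 and 161.7 against 226.3 and 226.1 and fell by 0.55 ± 0.12 (adjusted p = 0.000962, limma). It passed lower at 1 of its 2 tested probe sets.

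**Figure D3:**
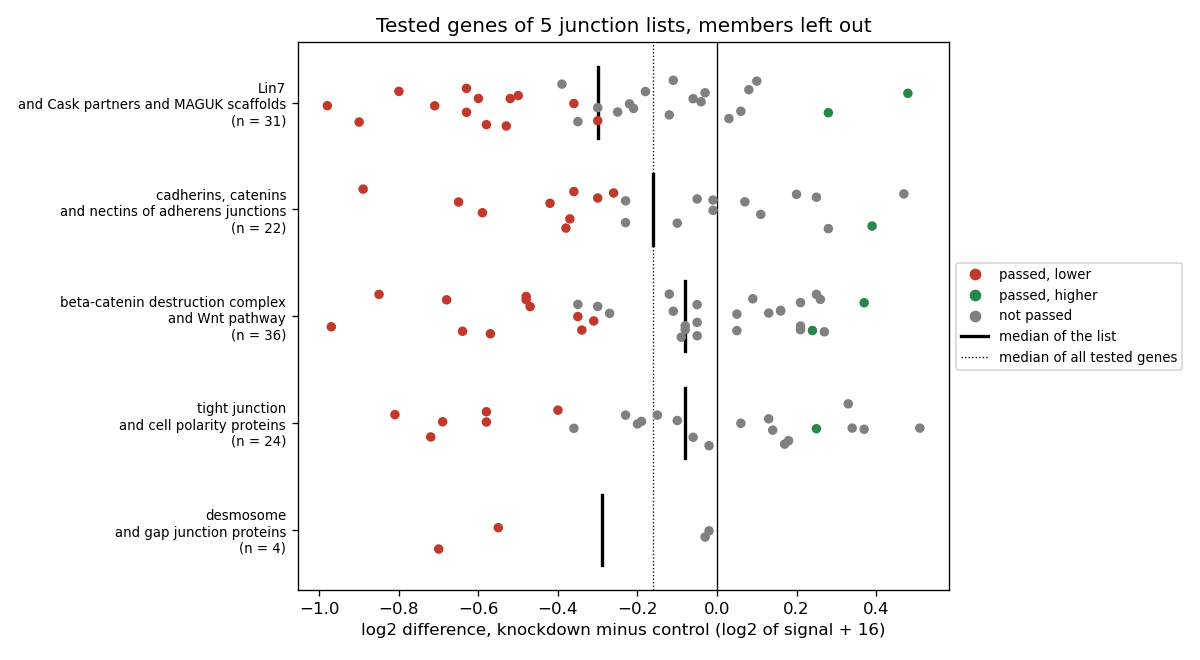
Log2 difference, knockdown minus control, of the 117 tested genes of 5 junction lists (a point per gene, coloured by whether it passed), with a bar at each list's median and a dotted line at the median of all tested genes, -0.16. Genes that passed lie mostly on the lower side in each list, and the medians of the lists lie between -0.30 and -0.08.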

How the data were processed

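The authors deposited linear intensities, a signal for each probe set on each array, from MAS5 per the submitters' processing notes. The sources used here give no software version, scaling target or filter. Per the labels' protocols, biotinylated cRNA came from 200 ng of poly(A)+ RNA. Genes were named from probe sets with a single symbol, updated by Entrez identifier through RefSeq (GRCm38.p6) for 34754 of 34945.

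Signals were taken as log2(signal + 16) without scaling. The 22519 probe sets at or above the median of the mean log2 value were tested in limma 3.58.1 (R 4.3.3; lmFit, eBayes with an intensity trend, two-sided, Benjamini-Hochberg at 0.05 over all of them). An exact permutation test on these arrays has a smallest p of 0.333, so each p rests on variance shared across genes. Gene lists used the brightest tested probe set of each gene over 11804 genes, and 2 list names were matched by synonym. The fit was checked on simulated data. Members and lists were chosen with earlier results of these data known.

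The text names all members with every probe set, from each list the 3 largest rises and the 3 largest falls that passed with no overlap between arrays, genes inside a member's span, the nearest genes beside Lin7b and Ctnna2, the 3 genes most like Lin7b, Gapdh and Actb. Paralogues other than Dlg4 and Ctnnal1 stand outside this rule. The settings tried instead were a pseudocount of 1 or of 64, quantile scaling, centring on all or on tested probe sets, spike-in scaling on 9 hybridization controls, no filter, the brightest 25%, no trend, a replicate block, a threshold of 0.01, leaving out _x_at and _s_at probe sets, the mean of a gene's probe sets, and leaving out each array. Figures used matplotlib 3.10.9 in Python 3.11.15.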

Additional observations from a re-analysis of the deposited data

How the results depend on the processing

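For the 12 member probe sets that passed, 187 values under alternatives gave 167 with the same call and direction, 20 with the call lost and none reversed. The lost calls were at Dlg1 1415691_at, Ctnnd1 1422450_at, Lin7c 1423322_at and Lin7c 1449262_s_at. All Lin7b, Ctnna2 and Cdh2 probe sets and Lin7c 1450937_at passed in each alternative that measured them. When each array was left out in turn, the numbers of lower and of higher member probe sets stayed the same or fell. Over all tested probe sets both numbers fell each time. In the junction lists the number of lower genes was 27 with quantile scaling, and that of higher genes 15 with quantile scaling, 12 after centring on tested probe sets, 2 with spike-in scaling and 3 without the intensity trend. Over all 11804 tested genes the number of lower genes went from 4155 to 2666 with quantile scaling, and that of higher genes from 1156 to 2089 with quantile scaling, 2004 after centring on tested probe sets, 524 with spike-in scaling and 830 without the intensity trend. Leaving out each array in turn gave 27 to 39 lower and 3 to 8 higher list genes. The causes were not tested. The labels do not say whether samples with the same replicate number were handled together. The correlation of their deviations from the group means was 0.00171, which with 2 arrays per group cannot settle this. A replicate block gave the same 9 lower and 3 higher member probe sets and 41 lower and 6 higher list genes. Where an array was left out, the lone array of its group was assumed to vary like the other group. Signal over background limits Lin7a, 1 to 2 probe sets each of Dlg1, Ctnna1 and Ctnnd1, and the knockdown level of Ctnna2. With 4 arrays, their number sets how precise any difference can be.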
